A study of Mus musculus with 77 samples.

Results

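The replication state of 8 large clusters of olfactory receptor genes was described in single blastomeres of cloned mouse embryos (SCNT, the transfer of a somatic nucleus into an egg whose own chromosomes were removed). The clusters were defined as fixed mm9 intervals on chromosomes 2, 7, 9, 10, 11, 16 and 17, and their members are the 80-kb bins that lie wholly inside those intervals. There are 240 such bins among 32973 bins in all and 30890 bins on the autosomes, which is 0.777% of the autosomal bins. The intervals were set by position and not by a replication value, although they were chosen with earlier results of these data known. All embryos carried the strain label BDF1 and were grown in vitro, while the labels do not state the type of the donor nucleus or the age of the egg donors. The data hold 28 blastomeres from 14 embryos of 4 cells and 49 blastomeres from 12 embryos of 8 cells (the 4-cell and 8-cell stages), all annotated as S-phase cells. No other kind of embryo, such as one from fertilised eggs, was analysed here.

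Olfactory receptor genes are the largest gene family of the mouse, and most of them sit side by side in clusters on many chromosomes. Each olfactory neuron expresses a single allele of a single receptor gene, while in most other cells these genes are silent. The clusters are poor in CpG islands. A cell copies its genome in S phase in a set order, in which active, gene-rich and GC-rich domains tend to come early and silent AT-rich domains tend to come late. Olfactory receptor clusters are known from differentiated cells as late domains, and the order is known to take shape over the cleavage divisions of the embryo.

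In the RefSeq gene table for GRCm38.p6, 1428 genes carry an olfactory receptor symbol, 1110 of them protein coding, and 1143 lie on the 7 chromosomes named above. That build is not the one of the bins, so the genes were matched to the clusters by chromosome and gene order alone and were placed in no bin. The longest run of protein-coding receptor genes on chromosome 2 holds 222 genes from Olfr987 to Olfr1274, between Lrrc55 and Ptprj, and the next run on that chromosome holds 37 genes from Olfr1275 to Olfr1318. Chromosome 7 has runs of 91, 42 and 35 genes, of which the first, from Olfr543 to Olfr649, also encloses the beta-globin genes Hbb-bt, Hbb-bs, Hbb-bh1 and Hbb-y and the ubiquitin ligase genes Trim21 and Trim68. The longest runs on the other chromosomes hold 95 genes on chromosome 9 (between Panx3 and Zfp202), 58 on chromosome 10 (between Mettl7b and Neurod4), 30 on chromosome 11 (between Spata22 and Rap1gap2), 25 on chromosome 16 (between Cldnd1 and Gabrr3) and 46 on chromosome 17 (between Gabbr1 and Esp36). The run on chromosome 17 also encloses H2-M2 and H2-M3, non-classical class I genes of the major histocompatibility complex.

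The base composition of these loci is shown by 1 promoter from each of the long runs on chromosomes 2 and 9, taken as the promoter whose GC content lies closest to the median of its run. Both are RefSeq windows of 300 bases on GRCm38.p6, read on the minus strand, and capitals mark each CG dinucleotide. Olfr1096 lies at chr2:86874753-86875052 and Olfr917 at chr9:38665793-38666092.
Olfr1096: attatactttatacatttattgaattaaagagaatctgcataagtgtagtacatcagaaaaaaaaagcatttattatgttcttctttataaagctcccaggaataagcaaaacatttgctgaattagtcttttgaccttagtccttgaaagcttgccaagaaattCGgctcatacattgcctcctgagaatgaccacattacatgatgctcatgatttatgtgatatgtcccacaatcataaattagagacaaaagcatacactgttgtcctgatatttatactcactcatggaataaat
Olfr917: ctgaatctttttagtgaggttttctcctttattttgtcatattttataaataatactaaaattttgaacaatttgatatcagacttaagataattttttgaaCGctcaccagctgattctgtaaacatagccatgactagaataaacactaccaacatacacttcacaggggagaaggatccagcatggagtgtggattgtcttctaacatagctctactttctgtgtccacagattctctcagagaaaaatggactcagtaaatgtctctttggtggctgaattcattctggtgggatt
The window of Olfr1096 has a GC content of 32% and that of Olfr917 of 35.3%, with 1 CG dinucleotide in each. Among the 948 olfactory receptor promoters in the table the median GC content was 35%, against 53.3% for the other 31903 promoters. The median number of CG dinucleotides was 1 against 8, and 33.3% of the receptor promoters held none, against 4.60% of the others. These letters describe the reference genome, and no value of the embryos was read from them.

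Each cell's deposited profile gives every 80-kb bin as replicated, not replicated or not called. The Repliscore of a cell is the percent of its called autosomal bins that are replicated, so it tells how far the cell had come through S phase. Cells with a Repliscore of 30 to 70, called mid-S here, were compared: 18 cells from 9 of the 4-cell embryos and 28 cells from 10 of the 8-cell embryos. Their autosomes had between 27915 and 29757 called bins, and their median Repliscore was 57.3 for the former and 49.5 for the latter. In each cell the percent of a cluster's called bins that were replicated was set against the cell's own autosomal percent and against the bins within 5 Mb on each side (the flanks), and the differences are in percentage points. Cells of an embryo were averaged first, so n counts embryos, and errors are SDs over embryos unless named otherwise. Two-sided exact sign-flip tests over embryos compare a stage with 0 and cannot go below p = 0.00391 with 9 embryos or p = 0.00195 with 10. Two-sided exact permutation tests of embryo labels compare the stages, and the p-values of the 48 tests (8 clusters by 6 comparisons) are not adjusted. The read depth behind a bin's state is unknown here.

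Several libraries stand apart, and the results below are given with and without them where they matter. An autosome is called one-state here when at least 98% of its called bins have the same state, which occurred in 2 of the 4-cell and 4 of the 8-cell mid-S cells. The annotation has 2 batches, called earlier and later here by the order of their labels, and the later one pools libraries of different name sets. The 4-cell embryos came from both the earlier batch (5 embryos, 10 mid-S cells) and the later batch (4 embryos, 8 mid-S cells), while all 8-cell embryos were in the later batch. Comparisons of the stages within a batch therefore rest on 4 of the 4-cell embryos. The 8 mid-S cells of those embryos had a Repliscore of 56.5 to 68.6 (median 60.9), while the 8-cell mid-S cells ran from 30.1 to 69.4 (median 49.5). Within the later batch the stages thus also differed in position in S phase, and the part of that difference was not tested. An 8-cell blastomere of embryo 11 had only 12 of 65 bins of the proximal chromosome 2 cluster called and 2 of 14 of the distal one, and another of that embryo had 11 of 33 of the chromosome 9 cluster. A 4-cell blastomere of embryo 3 had 4 of 17 bins called on chromosome 10, and the other mid-S cell of that embryo had 0 of 14 on chromosome 11. Only 7 of 65 bins of the proximal and 2 of 14 of the distal chromosome 2 cluster, 8 of 33 on chromosome 9, 4 of 17 on chromosome 10 and 0 of 14 on chromosome 11 were called in every mid-S cell, and values from those fully called bins alone are given below where they change a call or a direction or move a called value widely. Those bins are not spread evenly along the cluster, so their values describe a part of it.

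The 8 clusters as a group were replicated less than the cells' autosomes, and at the 8-cell stage this held in every mid-S cell. The 240 bins together were 41.4% ± 13.99 replicated in 4-cell embryos (n = 9) and 29.5% ± 9.52 in 8-cell embryos (n = 10). The differences from the autosomes over the 4-cell embryos had a lowest value of -23.2, a median of -17.3 and a highest of 10.7 points, with 8 of 9 embryos and 15 of 18 cells below 0. Over the 8-cell embryos the lowest was -29.0, the median -20.6 and the highest -12.3 points, with 10 of 10 embryos and 28 of 28 cells below 0. No p is given for the pooled bins, which are dominated by the long clusters on chromosomes 2 and 7.

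Cluster by cluster, 2 of 8 were below the autosomes at the 4-cell stage with an exact p under 0.05, and 7 of 8 were at the 8-cell stage. At the 4-cell stage these were the proximal chromosome 2 and chromosome 9 clusters. At the 8-cell stage the chromosome 16 cluster was the only one that did not pass. None was above the autosomes at either stage by this test. That a cluster passed at the 8-cell stage alone does not show that the stages differ, because the 4-cell embryos scattered more widely in 7 of the 8 clusters when SDs are compared, the proximal chromosome 2 cluster being the exception.

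**Figure D1:**
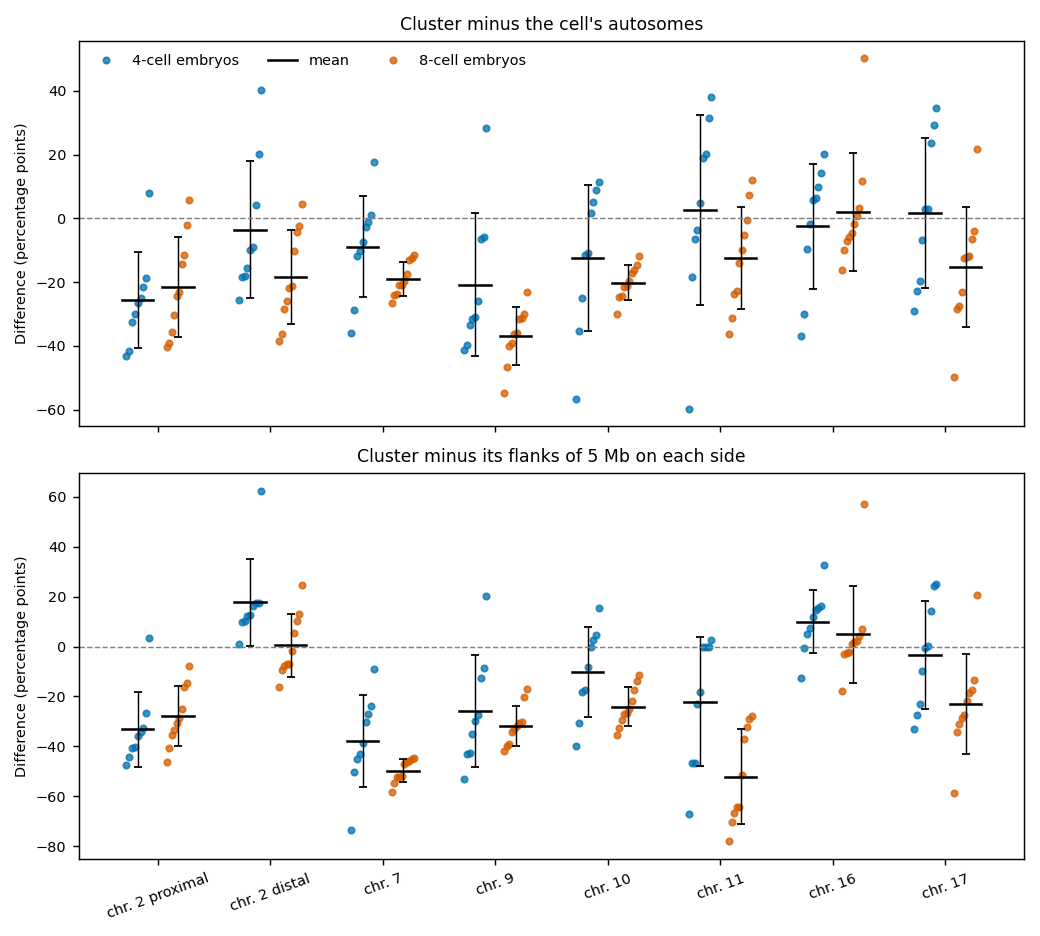
Each point is the mean over the mid-S cells of 1 embryo, black bars are means and whiskers are SDs (9 of the 4-cell and 10 of the 8-cell embryos). The upper plot shows the difference of each cluster from the autosomes and the lower plot that from the flanks, both in percentage points. All 8-cell embryos lie below 0 in both plots for chromosomes 7, 9 and 10, while the 8-cell points of chromosome 16 lie on both sides.

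The chromosome 9 cluster (33 bins, chr9:37520001-40160000) was the least replicated of the 8 at the 8-cell stage. Single mid-S cells at the 8-cell stage had from 0% to 93.9% of its bins replicated, with a median of 7.58%, and 27 of 28 cells lay below their autosomal percent. The embryos' differences from the autosomes ran from -54.7 to -23.0 points with a median of -36.1, so that no 8-cell embryo reached 0. The mean was -36.9 ± 8.997 points (n = 10, exact p = 0.00195). The 4-cell blastomeres ran from 0% to 100% with a median of 21.2%, and the embryos from -41.3 to 28.5 points with a median of -31.0. That mean was -20.8 ± 22.4 points (n = 9, exact p = 0.0234), with 8 of 9 embryos below 0. Embryo 14, which had a single mid-S cell, gave the value above 0. With fully called bins alone the 4-cell mean was -13.5 points (exact p = 0.258). Against the flanks the cluster was lower by a similar amount at both stages, at -25.8 ± 22.5 points (n = 9, exact p = 0.0156) and -31.9 ± 8.12 points (n = 10, exact p = 0.00195).

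Along the chromosome 9 cluster both ends were earlier than the middle. The outermost bins on either side were replicated in 77.8% and 76.5% of the 4-cell cells. Between them, 8 adjacent bins (chr9:38320001-38960000) were replicated in at most 16.7% of the 4-cell cells and at most 14.3% of the 8-cell cells. The latest bin, chr9:38720001-38800000, was replicated in 5.56% and 3.70% of cells. Of the 33 bins, 27 were replicated in at most 20% of the 8-cell mid-S cells and none in 80% or more.

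The proximal chromosome 2 cluster (65 bins, chr2:85040001-90240000) was low at both stages by similar amounts. Single 4-cell blastomeres had from 0% to 83.1% of it replicated with a median of 25.4%, and 17 of 18 lay below their autosomes. The embryo differences from the autosomes had a lowest value of -43.0, a median of -26.4 and a highest of 7.99 points. Their mean was -25.6 ± 15.1 points (n = 9, exact p = 0.00781), and only embryo 1 lay above 0. At the 8-cell stage single cells ran from 0% to 93.5% with a median of 15.4%, and the embryos from -40.3 to 5.81 points with a median of -23.7. The mean there was -21.5 ± 15.7 points (n = 10, exact p = 0.00586). The flanks were replicated to 62.01% and 56.04% at the 2 stages, which gave the cluster differences of -33.2 ± 15.1 points (exact p = 0.00781) and -27.9 ± 12.2 points (exact p = 0.00195). With flanks of 2 Mb these differences were -61.5 and -56.4 points, and with fully called bins alone -70.8 and -60.1 points. Those 7 bins (chr2:89280001-89840000) gave -43.8 and -33.5 points against the autosomes, and all but the last lie in the late run given below.

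An early island lay inside the proximal chromosome 2 cluster. Its 7 adjacent bins (560 kb, chr2:87040001-87600000) were replicated in 61.1% to 77.8% of the 4-cell cells and 55.6% to 100% of the 8-cell cells. Its earliest bin, chr2:87360001-87440000, was replicated in 77.8% of the 4-cell and all of the 8-cell cells with a call. On the distal side of this island, 18 adjacent bins (1.44 Mb, chr2:88320001-89760000) were replicated in at most 16.7% and 18.5% of cells. The latest bin of the cluster, chr2:88480001-88560000, was replicated in 5.56% and 3.70% of cells. The 1 Mb next to the cluster was early on both sides, with 93.1% and 96.8% of the 4-cell states and 89.9% and 93.0% of the 8-cell states replicated.

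The chromosome 7 cluster (68 bins, chr7:109520001-114960000) was below its flanks in every embryo of both stages. Its flanks were replicated to 83.6% ± 9.88 in 4-cell and 80.5% ± 6.83 in 8-cell embryos, and the cluster to 45.7% ± 17.6 and 30.7% ± 7.67. The difference from the flanks ran from -73.6 to -8.93 points over the 4-cell embryos (median -38.8) and from -58.1 to -44.7 over the 8-cell embryos (median -49.5). No embryo of either stage reached 0, with means of -37.9 ± 18.4 points (n = 9, exact p = 0.00391) and -49.8 ± 4.66 points (n = 10, exact p = 0.00195). Against the autosomes the cluster was lower in 8-cell embryos, with a mean of -18.95 ± 5.26 points (n = 10, exact p = 0.00195), and in 28 of 28 cells. At the 4-cell stage the embryos ran from -35.9 to 17.7 points with a median of -7.46, and the mean of -8.83 ± 15.9 points did not pass (n = 9, exact p = 0.137). Without embryo 1 the 4-cell mean was -12.1 points (exact p = 0.0156).

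The chromosome 7 cluster was a mosaic of early and late stretches. Inside it, 4 adjacent bins (chr7:111200001-111520000) were replicated in 66.7% to 72.2% of the 4-cell cells and 57.1% to 67.9% of the 8-cell cells, and 7 adjacent bins (chr7:112560001-113120000) in at least 55.6% and at least 50%. The second of these islands includes bins called in as few as 12 of the 46 cells. Late stretches of 480 kb (chr7:113360001-113840000) and 400 kb (chr7:114000001-114400000) were replicated in at most 16.7% of the 4-cell cells and at most 7.41% and 3.57% of the 8-cell cells. The latest bins of the cluster, chr7:114080001-114240000, were replicated in 11.1% of the 4-cell cells and 0% of the 8-cell cells. All mid-S cells changed state within the cluster, from 2 to 10 times in 4-cell and 3 to 12 times in 8-cell embryos.

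**Figure D2:**
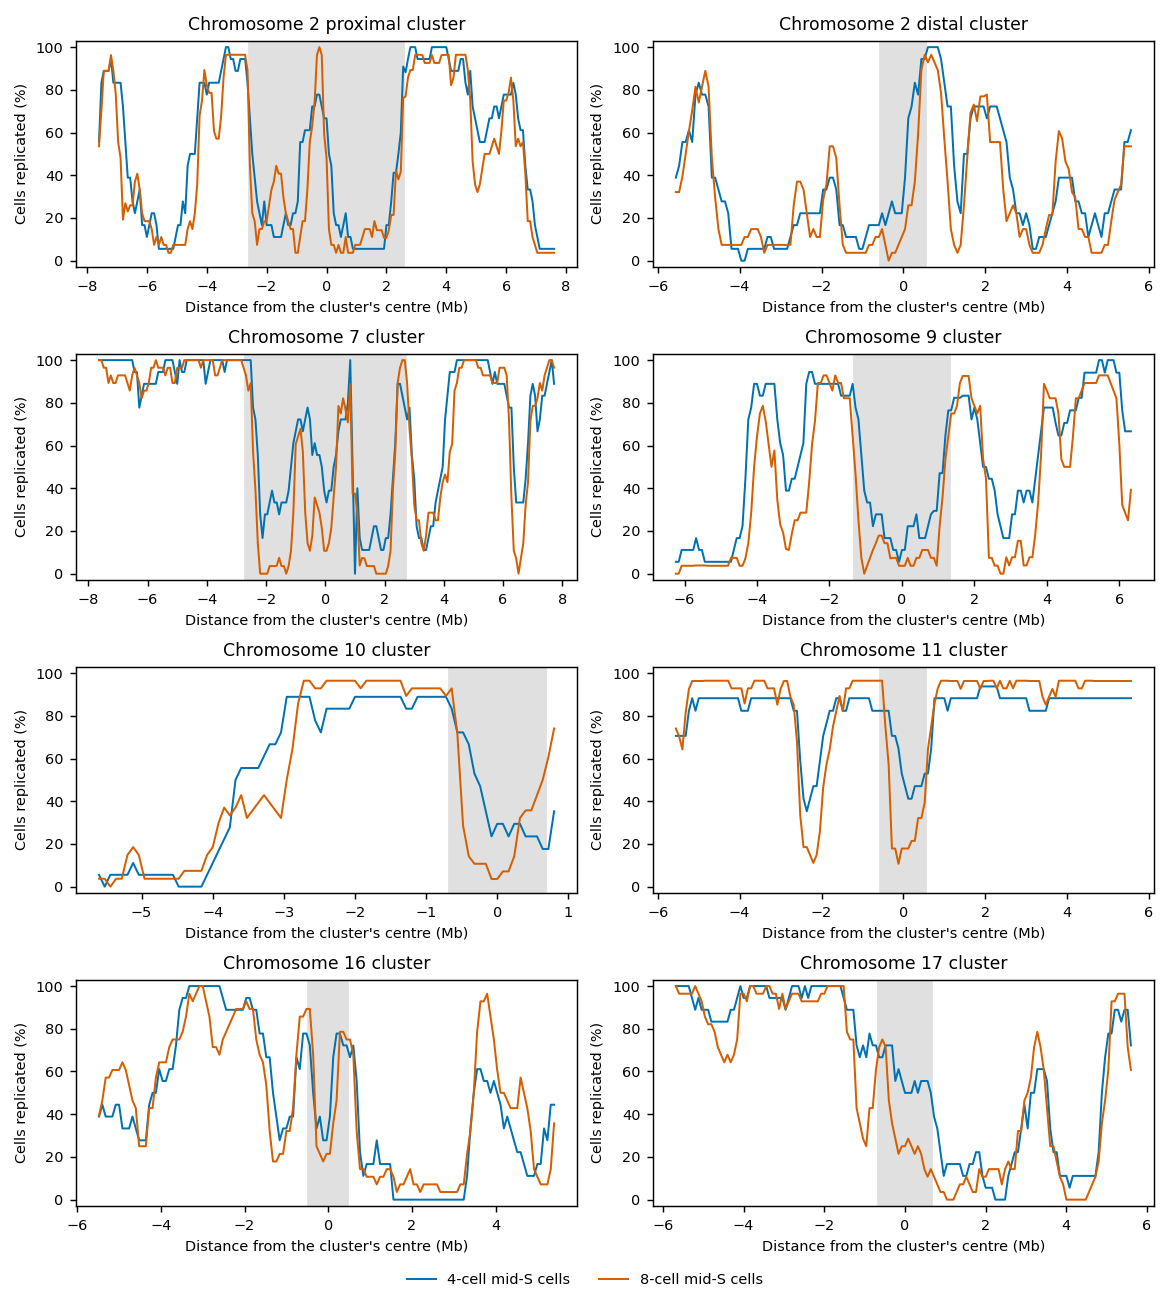
Lines show the percent of called mid-S cells in which each 80-kb bin was replicated, against the distance of the bin from the cluster's centre in Mb. Grey marks the cluster and the rest is the 5 Mb on each side. The chromosome 11 cluster is a trough between flanks that are early on both sides, those on chromosomes 2 (proximal) and 7 hold early islands, and the sharp spikes near 1 Mb in the chromosome 7 plot are bins called in few cells.

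The distal chromosome 2 cluster (14 bins, chr2:111040001-112160000) ran from late to early along its length. Its latest bin, chr2:111200001-111280000, was replicated in 22.2% of the 4-cell and 0% of the 8-cell cells, and its last bin, chr2:112080001-112160000, in 94.4% and 96.4%. Its flanks were the least replicated of the 8, at 33.2% and 30.7%, and the cluster as a whole was above them at the 4-cell stage. The 4-cell embryos ran from 1.21 to 62.4 points with a median of 12.7, all 9 above 0, and the mean was 17.7 ± 17.5 points (n = 9, exact p = 0.00391). With flanks of 2 Mb that difference was 5.22 points (exact p = 0.359), and with the 2 fully called bins 44.05 points (exact p = 0.0117). At the 8-cell stage the embryos ran from -16.4 to 24.7 points, and the mean was 0.502 ± 12.6 points (n = 10, exact p = 0.910). With the 2 fully called bins the 8-cell difference was 43.7 points (exact p = 0.00195). Against the autosomes the 4-cell mean was -3.51 ± 21.5 points (n = 9, exact p = 0.637) and the 8-cell mean -18.4 ± 14.7 points (n = 10, exact p = 0.00781), and the latter did not pass without cells that had a one-state autosome (-15.4 points, exact p = 0.0508). The 2 fully called bins, which are the last and earliest of the cluster (chr2:112000001-112160000), lay 39.9 and 45.5 points above the autosomes.

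The chromosome 10 cluster (17 bins, chr10:128400001-129760000) lies near the end of its chromosome, and 1 bin of data remains on its distal side. Its flank is therefore almost wholly the proximal one. Single 8-cell blastomeres had from 0% to 70.6% of it replicated with a median of 23.5%. The 8-cell embryos ran from -30.1 to -11.7 points against the autosomes, with a mean of -20.1 ± 5.45 points (n = 10, exact p = 0.00195), and from -35.6 to -11.4 points against the flank, with a mean of -24.1 ± 7.91 points (exact p = 0.00195). With a flank of 2 Mb the latter was -65.9 points (exact p = 0.00195). The 4 fully called bins, which are the first 4 of the cluster, gave 7.89 points against the autosomes (exact p = 0.248). At the 4-cell stage the embryos lay on both sides of 0, from -56.5 to 11.5 points against the autosomes (mean -12.4 ± 22.8, n = 9, exact p = 0.156). The lowest was embryo 6, in whose 2 mid-S cells the cluster and its flank were wholly unreplicated. Without cells whose flank held 1 state the mean was -6.92 points (exact p = 0.3125). With the 4 fully called bins alone it was 21.9 points (exact p = 0.102). Against the flank the 4-cell mean was -10.2 ± 17.9 points (exact p = 0.141), which became -42.6 points with a flank of 2 Mb (exact p = 0.00781). Along the cluster the 8-cell share fell from 92.9% of cells in its first bin to 3.57% at chr10:128960001-129040000. It then rose to 50% in the last bin, chr10:129680001-129760000, where the 4-cell share was at its lowest, 17.6%.

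The chromosome 11 cluster (14 bins, chr11:73040001-74160000) was a narrow trough, and its flanks were the most replicated of the 8 at the 8-cell stage. There the flanks were replicated to 89.4% ± 8.06 and the cluster to 37.3% ± 18.6. The 8-cell embryos ran from -78.1 to -27.9 points against the flanks with a median of -57.8, and none reached 0 (mean -52.1 ± 18.99 points, n = 10, exact p = 0.00195). Against the autosomes the 8-cell mean was -12.4 ± 16.1 points (n = 10, exact p = 0.0430), a call that was lost when any of 7 single embryos was left out (embryos 1, 3, 4, 5, 7, 9 and 11, exact p up to 0.0859). At the 4-cell stage the difference from the flanks did not pass, at -22.0 ± 25.8 points (n = 9, exact p = 0.0625).

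The 4-cell batches differed in the chromosome 11 cluster. In the 5 embryos of the earlier batch the differences from the flanks ran from -67.0 to -18.1 points, with a mean of -40.2 ± 19.9. In the 4 embryos of the later batch the differences lay between 0 and 2.82 points. There, 6 of the 7 cells with a call had the cluster and all 10 Mb of flanks in a single state, 2 of them wholly unreplicated and the others wholly replicated. In 2 of these 7 cells, both of embryo 6, the rest of chromosome 11 was also in 1 state, and in the others it was 33.5% to 84.0% replicated. The part of the batch, or of such single-state regions, in the chromosome 11 values was not tested beyond the fits without them given below.

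The chromosome 17 cluster (17 bins, chr17:37040001-38400000) lies between an early proximal flank, replicated to 91.9% and 86.2% at the 2 stages, and a late distal flank, at 27.4% and 28.4%. Its profile sloped between them at the 8-cell stage, from 73.2% of cells in its earliest bins to 12.5% in its last bins, chr17:38240001-38400000, where the 4-cell share was 52.8%. The 8-cell embryos ran from -49.8 to 21.9 points against the autosomes with a median of -12.4, and the mean was -15.4 ± 18.8 points (n = 10, exact p = 0.0273). Without cells with a one-state autosome it was -9.71 points (exact p = 0.109), and without any 1 of embryos 1, 2, 6 and 11 the exact p was 0.0547. The 4-cell embryos ran from -29.1 to 34.6 points, with a mean of 1.70 ± 23.4 (n = 9, exact p = 0.793). Against the flanks the 8-cell mean was -23.1 ± 19.98 points (exact p = 0.00977) and the 4-cell mean -3.42 ± 21.8 points (exact p = 0.664). The 8-cell difference was -10.2 points with flanks of 2 Mb (exact p = 0.170).

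The chromosome 16 cluster (12 bins, chr16:58640001-59600000), the shortest, did not differ from the autosomes at either stage by these tests. The means were -2.42 ± 19.6 points in 4-cell embryos (n = 9, exact p = 0.723) and 2.06 ± 18.5 points in 8-cell embryos (n = 10, exact p = 0.875). Single cells ran from 0% to 100% at both stages, with medians of 54.2% and 41.7%. Both of its ends were early, at 72.2% of 4-cell and 89.3% of 8-cell cells in the first bin, and the middle was later, with 27.8% and 17.9% of cells at chr16:58960001-59040000. Against the flanks, which were early on the proximal and late on the distal side, the 4-cell mean was 10.0 ± 12.6 points (n = 9, exact p = 0.0469) and the 8-cell mean 4.87 ± 19.6 points (n = 10, exact p = 0.602). With flanks of 2 Mb the 8-cell difference was 12.1 points (exact p = 0.00391), while its lowest value under another alternative was -4.36 points. The 4-cell call was lost when any of 7 single embryos was left out (embryos 3, 6, 7, 9, 10, 11 and 13, exact p up to 0.0938), and in cells of Repliscore 40 to 60 it was 5.40 points (exact p = 0.531).

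The clusters' bins were also set against all autosomal bins, with a linear model fitted to every bin (limma, Benjamini-Hochberg adjusted over 29719 bins, threshold 0.05). Of the 236 member bins tested (4 bins of the chromosome 7 cluster had too few calls), 46.2% were later than the autosomes at the 4-cell stage, against 32.9% of all bins. At the 8-cell stage 141 were later, which is 59.7%, against 39.2% of all bins. Bins earlier than the autosomes numbered 23 (9.75%) in 4-cell embryos, against 35.3% of all bins, and 27 (11.4%) in 8-cell embryos, against 38.2% of all bins. The median difference of the member bins from the autosomes was -18.3 points in 4-cell and -29.8 points in 8-cell embryos, against 1.05 and -2.80 points over all bins. Neighbouring bins of a cluster share their state, so these shares describe the 8 clusters and are not a test of them. By cluster, the later bins at the 8-cell stage were 27 of 33 on chromosome 9, 43 of 65 and 8 of 14 on chromosome 2, 39 of 64 on chromosome 7, 9 of 17 on chromosome 10, 6 of 14 on chromosome 11, 5 of 12 on chromosome 16 and 4 of 17 on chromosome 17. The share on chromosome 17 was below the 39.2% of all bins, and those on chromosomes 11 and 16 were near it.

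The member bins were rarely among the early bins of these embryos. Only 6.67% of them were replicated in at least 80% of the 4-cell mid-S cells, and 7.08% in as many of the 8-cell ones, against 32.5% and 31.3% of all autosomal bins. Bins replicated in at most 20% of cells made up 24.6% of the members in 4-cell and 53.8% in 8-cell embryos, against 19.9% and 33.5% of all autosomal bins. A bin's class also moves with the cells' Repliscores, which were lower at the 8-cell stage.

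**Figure D3:**
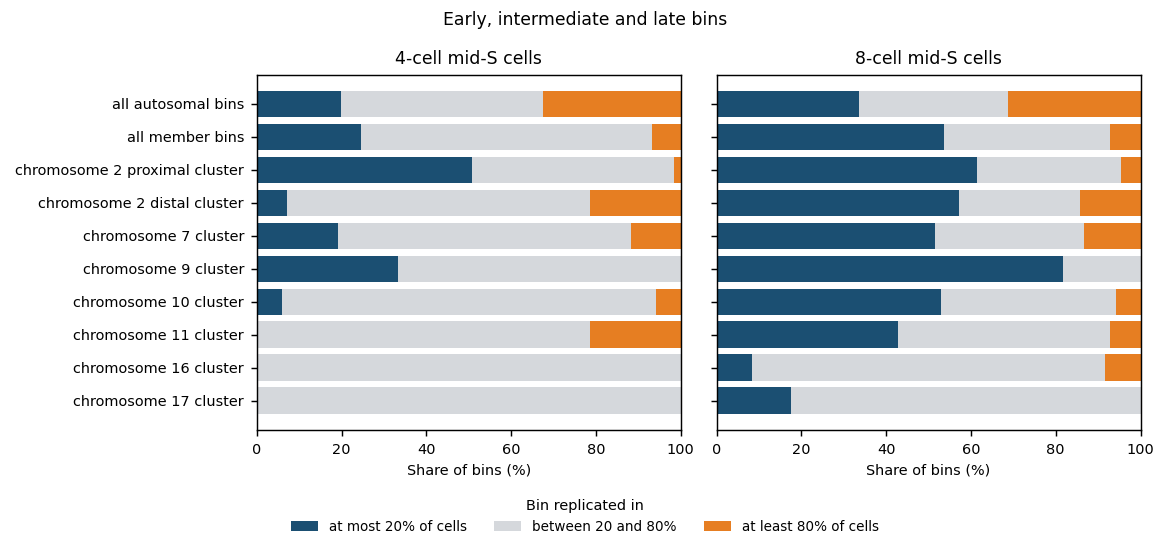
Bars give the share of bins, in percent, that were replicated in at most 20%, in between, or in at least 80% of the mid-S cells with a call, for all autosomal bins, all 240 member bins and each cluster, with the 4-cell stage on the left and the 8-cell stage on the right. The late class takes 24.6% of the member bins in the left plot and 53.8% in the right one, where it takes 81.8% of the chromosome 9 cluster.

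The stages were then compared directly. Relative to the autosomes, 6 of the 8 clusters were lower at the 8-cell stage, but only the chromosome 9 cluster passed, at -16.1 points (SE 8.01, 9 and 10 embryos, exact p = 0.0375). The differences of the distal chromosome 2 (-14.9 points, exact p = 0.0909), chromosome 7 (-10.1 points, exact p = 0.0726) and chromosome 17 clusters (-17.1 points, exact p = 0.0961) did not pass, nor did those of chromosomes 10 and 11. The proximal chromosome 2 and chromosome 16 clusters were higher by 4.15 points (SE 7.07, exact p = 0.564) and 4.48 points (SE 8.78, exact p = 0.630). Relative to the flanks, the distal chromosome 2 cluster differed by -17.2 points (SE 7.07, exact p = 0.0124), the chromosome 10 cluster by -13.9 points (SE 6.46, exact p = 0.0402) and the chromosome 11 cluster by -30.1 points (SE 10.5, exact p = 0.0119).

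None of these 4 stage differences held under every alternative. The chromosome 9 difference was -11.6 points in cells of Repliscore 40 to 60 (exact p = 0.108), -13.7 points without cells with a one-state autosome (exact p = 0.124) and -9.08 points without cells whose flanks held 1 state (exact p = 0.330), but -16.9 points within the later batch (exact p = 0.0310). Without 4-cell embryo 14, which had a single mid-S cell, it was -9.95 points (exact p = 0.0849), and the call was lost on leaving out any of 9 single embryos among the 19 (4-cell embryos 1, 6 and 14, 8-cell embryos 4, 5, 6, 7, 9 and 12). The chromosome 10 and 11 differences from the flanks were -29.7 points (exact p = 0.000999) and -52.8 points (exact p = 0.000999) within the later batch, where p cannot be smaller, and -1.23 points (exact p = 0.816) and -11.9 points (exact p = 0.275) when the 8-cell embryos were set against the earlier-batch 4-cell embryos alone. The chromosome 10 call was also lost on leaving out any of 11 single embryos (4-cell embryos 1, 3, 6, 7 and 10, 8-cell embryos 1, 3, 4, 5, 7 and 9, exact p up to 0.0844). It was -5.51 points at Repliscore 40 to 60 (exact p = 0.549), -13.04 points without cells whose flanks held 1 state (exact p = 0.0636) and -23.3 points with a flank of 2 Mb (exact p = 0.0348). Without cells whose flanks held 1 state the chromosome 11 difference was -19.5 points (exact p = 0.152). The distal chromosome 2 difference was -9.84 points within the later batch (exact p = 0.173) and -10.1 points with flanks of 2 Mb (exact p = 0.0938). It was -14.4 points at Repliscore 40 to 60 (exact p = 0.0683) and -0.306 points with the 2 fully called bins (exact p = 0.982). Against the autosomes the stage difference of that cluster was 5.51 points with the same 2 bins (exact p = 0.552). Within the later batch, whose 4-cell mid-S cells were further through S phase by their median, the chromosome 7 cluster differed by -13.5 points from the autosomes (exact p = 0.0480). From the flanks it differed there by -17.4 points (exact p = 0.0160). The chromosome 17 cluster differed there by -29.4 points from the flanks (exact p = 0.0310). Against the autosomes the chromosome 10 stage difference did not pass in the main comparison (-7.68 points, exact p = 0.320). It was -13.2 points without 4-cell embryo 6 (exact p = 0.0333) and -12.9 points without cells with a one-state autosome (exact p = 0.0459). In cells of Repliscore 40 to 60 it was 6.13 points (exact p = 0.561).

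Among single bins, 2 members (0.847%) were later at the 8-cell stage, a share near the 0.693% of all bins (limma, adjusted p under 0.05). Earlier members numbered 0, against 0.195% of all bins. At an unadjusted p under 0.05, 28 members (11.9%) were later and 12 (5.08%) earlier, against 7.75% and 6.25% of all bins. Both called bins adjoin each other in the chromosome 7 cluster, between the islands described above. At chr7:111600001-111680000, 77.8% of the 4-cell and 14.3% of the 8-cell cells were replicated (difference between the stages after subtracting the autosomes -59.8 points, SE 11.7, limma adjusted p = 0.0154). At chr7:111680001-111760000 the shares were 72.2% and 10.7% (-58.5 points, SE 11.6, limma adjusted p = 0.0169). The bins lie on the distal shoulder of the island at chr7:111200001-111520000, which was wider at the 4-cell stage. Neither bin passed when the variance was fitted with a trend and robustly, in cells of Repliscore 40 to 60, or with the autosomal percent as a covariate.

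The course through S phase was followed in all 77 cells, outside the mid-S window as well. In the 4 cells of the 8-cell stage below a Repliscore of 30 that had no one-state autosome, the medians of the 8 clusters ran from 0% to 9.88%, against a median of 15.8% for their autosomes. In the 10 such cells above 70 the autosomal median was 79.4%, and the clusters on chromosomes 10, 16 and 17 had medians of 100%. The same cells had a median of 57.6% in the chromosome 9 cluster and 66.2% in the proximal chromosome 2 cluster. The chromosome 9 cluster was still less than 50% replicated in a cell of Repliscore 92.5. Among 4-cell blastomeres, 8 of the 9 above 70 had a one-state autosome, so its late S phase was not followed.

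**Figure D4:**
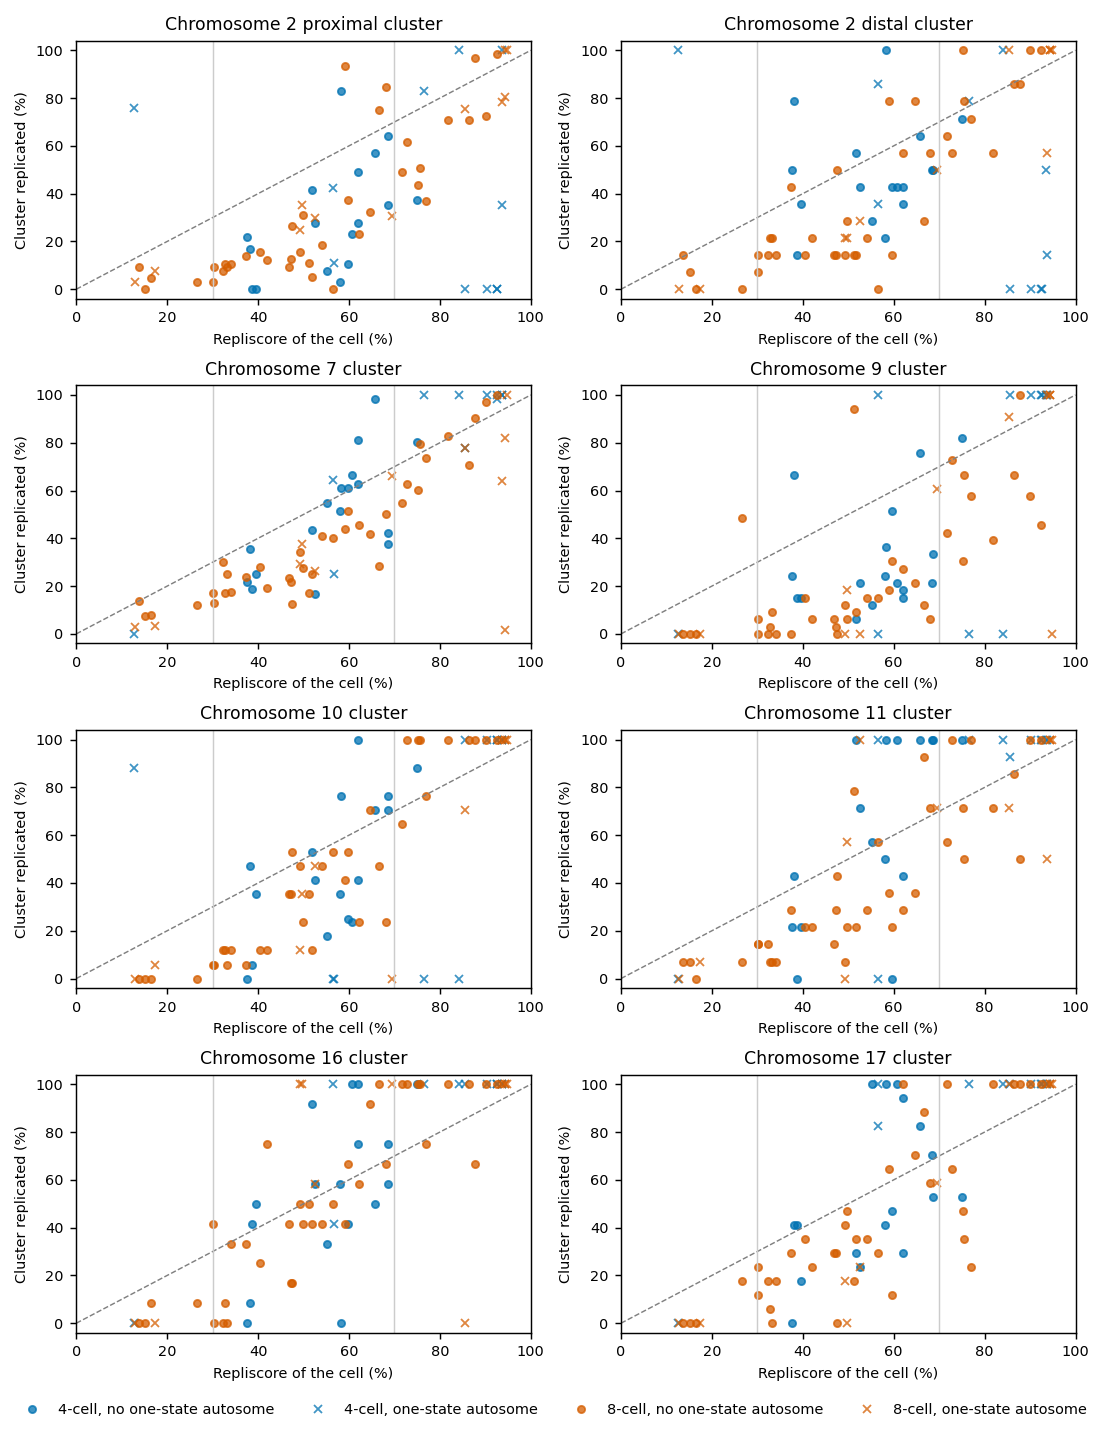
Each point is 1 cell with a call in the cluster, of 77 cells in all, with its Repliscore in percent on the horizontal axis and the percent of the cluster's called bins that were replicated on the vertical axis. Crosses are cells with a one-state autosome, the dashed line marks equality and the grey lines mark the mid-S window of 30 to 70. Most 8-cell points of the chromosome 9 and proximal chromosome 2 clusters lie below the dashed line, while those of chromosome 16 lie on both sides of it.

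Most clusters were in a mixed state in a given mid-S cell. Only 37 of 143 cluster states in 4-cell embryos (25.9%) and 53 of 224 in 8-cell embryos (23.7%) were uniform, that is, at most 10% or at least 90% replicated. The long chromosome 7 cluster was uniform in 1 of 18 and 0 of 28 cells. The chromosome 9 cluster was uniform in 17 of 28 cells of the 8-cell stage, 16 of them unreplicated. The chromosome 11 cluster was uniform in 10 of 17 cells at the 4-cell stage, 3 unreplicated and 7 replicated, and in 7 of 28 at the 8-cell stage. The binary state of a cell holds both copies of a chromosome in 1 value, so a difference between alleles could not be seen here.

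The clusters' differences from the autosomes were also compared within cells. Over the 28 pairs of clusters, the Pearson correlation across cells had a median of 0.20 in 4-cell embryos (range -0.37 to 0.68) and -0.07 at the 8-cell stage (range -0.37 to 0.47). The pair of clusters on chromosome 2 had 0.67 over 18 cells and 0.47 over 28 cells. These cells share embryos, and the pair shares a chromosome, so the values are descriptions only. Along the clusters, the bins' shares of replicated cells at the 2 stages correlated at 0.46 on chromosome 10 to 0.88 in the distal chromosome 2 cluster, against 0.88 over all autosomal bins.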

How the data were processed

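The deposited files give 1 row per 80-kb bin and 1 column per cell with the authors' binary state (1 replicated, -1 not, 0 no call), and a cell annotation with the Repliscore in percent, a MAD score of profile noise, embryo and batch, per the file headers. Coordinates are mm9 (submitters' processing notes). Which aligner and state caller made the states, and with which settings, is not stated in the labels or headers, and the annotation names a 2-somy model for every cell. States come from an unseen fit, so long runs of 1 state can reflect its smoothing. A percent here is replicated bins over called bins, and the deposited Repliscore equals the autosomal percent to within 4.98e-09.

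Cells were selected at Repliscore 30 to 70 and averaged per embryo, taken from the annotation. The number of cells and embryos limits precision: 9 and 10 embryos, 2 and 1 of them with a single mid-S cell. Embryos of a stage are separate samples. Tests were two-sided exact sign-flip and permutation tests (Python 3.11.15, numpy 2.4.6) and limma 3.58.1 in R 4.3.3 on embryo means of each bin minus the autosomal percent, for bins with at least 6 embryos per stage. They were tested on simulated data. All 8 clusters, the earliest and latest stretch in each and all bins called between stages were named by rule. Early islands (adjacent bins at 50% or more at both stages) and late runs (20% or less) were chosen after values were seen. The intervals and lists were chosen with earlier results of these data known. Alternatives were a narrower Repliscore window, flanks of 2 Mb, other autosomes as reference, fully called bins, other limma settings, leaving out single embryos, a batch or cells with one-state autosomes. Settings on bins called, uniform flanks and earlier-batch embryos were added after seeing the data.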

Additional observations from a re-analysis of the deposited data

Results flagged for a closer look

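The proximal chromosome 2 cluster had 1 outlying 4-cell embryo. Embryo 1, from 2 cells, was 7.99 points above the autosomes and 3.47 points above the flanks, while the other embryos lay from -43.0 to -18.8 and from -47.3 to -26.5 points.

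Embryo 14 of the 4-cell stage, a single cell, was 28.5 points above its autosomes in the chromosome 9 cluster (others -41.3 to -5.95) and 62.4 points above the flanks in the distal chromosome 2 cluster (others 1.21 to 17.5). In the chromosome 16 cluster, 8-cell embryo 2, a single cell with a one-state autosome, was 50.2 points above its autosomes (others -16.1 to 11.6) and 57.3 above its flanks (others -17.6 to 7.14), with the cluster wholly replicated. These 6 values are among 32 groups examined, and chance alone gives a gap of this size in about 5% of groups.

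Between the stages, the tested differences with an exact permutation p under 0.05 were -16.1 points for chromosome 9 against the autosomes, and -17.2 points for distal chromosome 2, -13.9 points for chromosome 10 and -30.1 points for chromosome 11 against the flanks. Their values in single batches are in the report.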

How the results depend on the processing

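No paired analysis was possible because the replicate numbers only name cells in accession order and the stages hold different embryos. Over the 48 cluster results, 873 of 970 values under an alternative were counted as unchanged. A value that kept its direction counted so if it stayed on its side of 0.05, whatever its size. A value whose direction turned without a call, or for which no p was computed, counted if it moved by at most 1 SD (SE between the stages). The count includes the 8-cell values within the later batch, which equal the main ones because all 8-cell embryos were in that batch. Of the remaining values, 63 no longer passed, 28 newly passed, 3 moved and 3 reversed. The reversals came with only those bins called in every mid-S cell, which leaves 2 of 14 bins in the distal chromosome 2 cluster (39.9 points in 4-cell and 45.5 in 8-cell embryos) and 4 of 17 on chromosome 10 (7.89 points at the 8-cell stage), and 0 bins on chromosome 11. Those 2 and 4 bins lie at the end of their cluster that holds its earliest bin. In cells of Repliscore 40 to 60, 1 cluster was below the autosomes and 1 above its flanks at the 4-cell stage, against 2 and 2. The latter count was also 1 without cells with a one-state autosome and with flanks of 2 Mb, where 1 cluster was above its flanks at the 8-cell stage (0 before); leaving out single embryos gave 1 to 2. The stage difference against the autosomes (1 cluster below 0) gave 2 within the later batch, 0 with at least 50% of bins called, 0 without 4-cell embryos of the later batch, and 0 to 3 without single embryos. Against the flanks (3 clusters) it gave 1 without cells whose flanks held 1 state, 1 without 4-cell embryos of the later batch, and 2 to 5 without single embryos. Uniform cluster states at the 8-cell stage were 47.8% at a limit of 80% and 10.3% at 100%, against 23.7%. Of tested member bins, 6.33% were earlier than the autosomes at the 4-cell stage at Repliscore 40 to 60 and 15% in windows of 1 Mb, against 9.75%; at the 8-cell stage such windows gave 5.00% against 11.4%. Bins later at the 8-cell stage (0.847%) were 0% at Repliscore 40 to 60, with trend and robust fitting, with the covariate and in 1-Mb windows, 2.97% without one-state cells, 2.11% within the later batch and 0.847% to 1.69% without single embryos. The cause of these changes was not tested. Within the later batch alone, 4 embryos cannot reach a sign-flip p under 0.125.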
